A study of Homo sapiens with 6 samples.

Results

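SLC2A4, SLC43A1 and SLC7A2 are the genes of 3 membrane transporters of the solute carrier superfamily, 1 for glucose and 2 for amino acids. They were taken by symbol from the authors' deposited table of genes that differed between shVPS35 and vector cells, and make up 3 of its 426 genes. The cells sequenced were MKN28, a human gastric cancer line that registries list as derived from MKN74. They carried short hairpin RNA against VPS35 (shVPS35, 3 samples) or a control vector (vector, 3 samples). The series' design text calls the samples biological replicates. The labels do not say whether the knockdown samples share a hairpin or a clone, nor what hairpin, if any, the control vector carries.

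VPS35 is the core subunit of retromer, a coat that sorts membrane proteins out of endosomes towards the trans-Golgi network or the cell surface. Many solute carriers pass through endosomes, so their protein at the surface depends on sorting as well as on transcript supply. SLC2A4 encodes GLUT4, the insulin-responsive glucose carrier of muscle, heart and fat, which waits in intracellular vesicles until insulin sends it to the surface. In cultured mouse adipocytes, GLUT4 protein has been described as a cargo that sortilin and retromer carry. SLC43A1 encodes LAT3, a sodium-independent carrier of branched-chain amino acids, phenylalanine and methionine, best known from prostate cancer. SLC7A2 encodes CAT2, a carrier of arginine, lysine and ornithine whose splice forms serve liver and activated macrophages. The measurements here are of transcripts, not of transporter protein or of uptake.

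All 3 transcripts had low deposited values, below 4 in every sample, and they did not move in 1 direction. With VPS35 depleted, the amino acid carrier gene SLC43A1 was 3.45-fold higher by group means and the glucose carrier gene SLC2A4 was 2.24-fold higher. The cationic amino acid carrier gene SLC7A2 stood at 33.9% of its vector level. Every gene in the table has an adjusted p under 0.05 and a log2 fold change of more than 1 in size, so that each member had to differ between these samples to be in it. The authors' adjusted p-values imply that 16063 genes had been tested, of which 2.65% were listed, 1.18% as higher and 1.47% as lower in shVPS35 cells. How many other solute carrier genes were among the 16063 was not analysed here.

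The values are expression values per gene and sample with 2 decimals, whose header names no unit. Whether they were divided by transcript length is not stated, so the level of 1 gene cannot be read against that of another. Ratios between genes are given for their difference between the groups, and sets of genes by level rest on the deposited values. Read depth is unknown. Summed over the table, values came to 4853, 5004 and 4696 in the shVPS35 samples, against 5130, 5078 and 5029 in the vector samples. VPS35 itself had values of 12.9, 15.6 and 11.8 in the shVPS35 samples and of 64.4, 64.3 and 67.2 in the vector samples, so that the 3 samples labelled shVPS35 held its 3 lowest values. Of 13 gastric epithelial markers, PSCA, GKN1 and GKN2 were in the table and all 3 were lower in shVPS35 cells, while the others were not analysed here. Beside this and the marker counts that follow stand the shares over all genes tested by the authors, 2.65% listed and 1.47% listed as lower. No marker list was tested as a set. None of 10 skeletal muscle markers was in the table, and of 7 adipocyte markers LPL alone was, at 0.910, 1.27 and 0.640 in shVPS35 samples and 0.0200, 0 and 0.0700 in vector samples. Of 7 macrophage markers CD68 alone was listed, at 16.9 ± 0.369 in shVPS35 and 55.6 ± 1.33 in vector samples (SD, n = 3 per group). Of 6 fibroblast markers DCN was listed as higher and LUM as lower in shVPS35 cells, of 4 endothelial markers CDH5 was listed as lower, and none of 4 hepatocyte markers was in the table. The part of these markers in the transporter differences was not tested. In bulk samples a lower level in each cell and fewer cells that carry a transcript cannot be told apart.

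SLC43A1 was the member whose regulatory sequence was at hand, and it is shown because it had the largest change of the 3. RefSeq places start sites of the gene 793 bases apart on the minus strand of chromosome 11. Both windows (GRCh38.p14, 250 bases before to 50 after each start) are printed 5′ to 3′, with matches to the searched motifs in capitals.
SLC43A1 upstream start, chr11:57515653-57515952, minus strand: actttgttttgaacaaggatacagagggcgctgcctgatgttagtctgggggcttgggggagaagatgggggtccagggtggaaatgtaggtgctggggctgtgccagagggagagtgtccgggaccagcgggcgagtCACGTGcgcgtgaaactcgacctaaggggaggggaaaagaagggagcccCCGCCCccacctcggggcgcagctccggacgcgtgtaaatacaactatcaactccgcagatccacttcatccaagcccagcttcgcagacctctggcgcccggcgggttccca
SLC43A1 downstream start, chr11:57514860-57515159, minus strand: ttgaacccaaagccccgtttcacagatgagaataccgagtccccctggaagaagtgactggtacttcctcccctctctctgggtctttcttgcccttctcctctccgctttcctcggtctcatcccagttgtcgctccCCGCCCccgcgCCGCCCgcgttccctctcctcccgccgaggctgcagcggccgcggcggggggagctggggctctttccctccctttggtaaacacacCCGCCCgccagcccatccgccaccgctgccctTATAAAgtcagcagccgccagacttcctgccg
The TATA box was searched as TATAAA, the E-box as CACGTG, the GC box as GGGCGG and the AP-1 site as TGANTCA, each on both strands, and no matches overlapped. The upstream window held 1 E-box and 1 GC box. The downstream window held 3 GC boxes and 1 TATA box, which began 18 bases after the annotated start. Among 35116 RefSeq windows of the same length, the E-box was present in 7.26%, the GC box in 45.0%, the TATA box in 11.5% and the AP-1 site in 7.71%. Neither SLC43A1 window held an AP-1 site. These matches describe the letters of the windows, and the deposited values do not separate the 2 starts. No window is printed for SLC2A4 or SLC7A2.

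SLC43A1 (ENSG00000149150) lies on chromosome 11, 57484534 to 57515786, minus strand (GENCODE 29, GRCh38), with 10 annotated transcripts of which 5 are protein coding. Its expression value was 3.09, 3.30 and 3.18 in the shVPS35 samples, against 1.13, 0.750 and 0.890 in the vector samples. Every shVPS35 sample lay above every vector sample, and the gap of 1.96 between the groups was wider than the whole range within either. The group means were 3.19 ± 0.105 in shVPS35 and 0.923 ± 0.192 in vector cells (SD, n = 3 per group). On the log2(value + 1) scale, which understates the change of low genes, the difference was 1.13 ± 0.11 (SE, limma adjusted p = 2.2e-05), with a 95% interval of 0.87 to 1.39. Its 3 shVPS35 values alone brought it past the filter for the limma test, a value of 1 in 3 samples or more. The test called 100.0% of the genes it was run on, so this p is no independent evidence of a change. Spread among the knockdown samples was small, with a coefficient of variation of 3.30% in shVPS35 and 20.8% in vector samples. The 91 listed genes of comparable deposited value (higher group mean of 2 to 5) had a median coefficient of 19.4% in shVPS35 and 18.1% in vector samples. No other gene annotated in GENCODE 29 overlaps SLC43A1, and other releases were not searched.

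SLC2A4 (ENSG00000181856) lies on chromosome 17, 7281667 to 7288257, plus strand. Its expression value was 0.890, 1.14 and 0.790 in the shVPS35 samples, against 0.400, 0.300 and 0.560 in the vector samples. The groups did not overlap, but the lowest shVPS35 value lay only 0.230 above the highest vector value. The means were 0.940 ± 0.180 in shVPS35 and 0.420 ± 0.131 in vector cells (SD, n = 3 per group), with coefficients of variation of 19.2% in shVPS35 and 31.2% in vector samples. Among the 139 listed genes with a higher group mean of 0.5 to 2, the medians were 31.6% in shVPS35 and 25.8% in vector samples. SLC2A4 reached a value of 1 in 1 sample, short of the 3 samples required for the limma test, so its log2(value + 1) difference of 0.45 is given with no test. Without that filter 95.8% of the 426 genes were called and the limma adjusted p of SLC2A4 was 0.0075, with a 95% interval of 0.17 to 0.73. The antisense gene AC003688.2 lies within SLC2A4, and the end of YBX2 overlaps its last bases on the other strand. No source used here says whether counting used strand, so reads of AC003688.2 and SLC2A4 may not have been separated.

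SLC7A2 (ENSG00000003989) lies on chromosome 8, 17497088 to 17570573, plus strand, with 6 annotated coding transcripts of 2068 to 7638 bases. Its expression value was 0.890, 1.04 and 0.870 in the shVPS35 samples, against 2.98, 2.83 and 2.46 in the vector samples. Every shVPS35 sample lay below every vector sample, by at least 1.42. The means were 0.933 ± 0.0929 in shVPS35 and 2.76 ± 0.268 in vector cells (SD, n = 3 per group), and the coefficient of variation was close to 10% in each, at 9.96% in shVPS35 and 9.71% in vector samples. The log2(value + 1) difference was -0.96 ± 0.11 (SE, limma adjusted p = 4.1e-05), with a 95% interval of -1.20 to -0.71. Its 3 vector values alone brought SLC7A2 past the filter for the limma test, so the same limit holds for this p. The gene-level values do not separate the SLC7A2 splice forms. GENCODE 29 places 4 short genes within SLC7A2, AP006248.3, AP006248.4 and AP006248.5 on the same strand and AP006248.2 on the other, and reads of the overlapping genes cannot be told apart here.

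**Figure D1:**
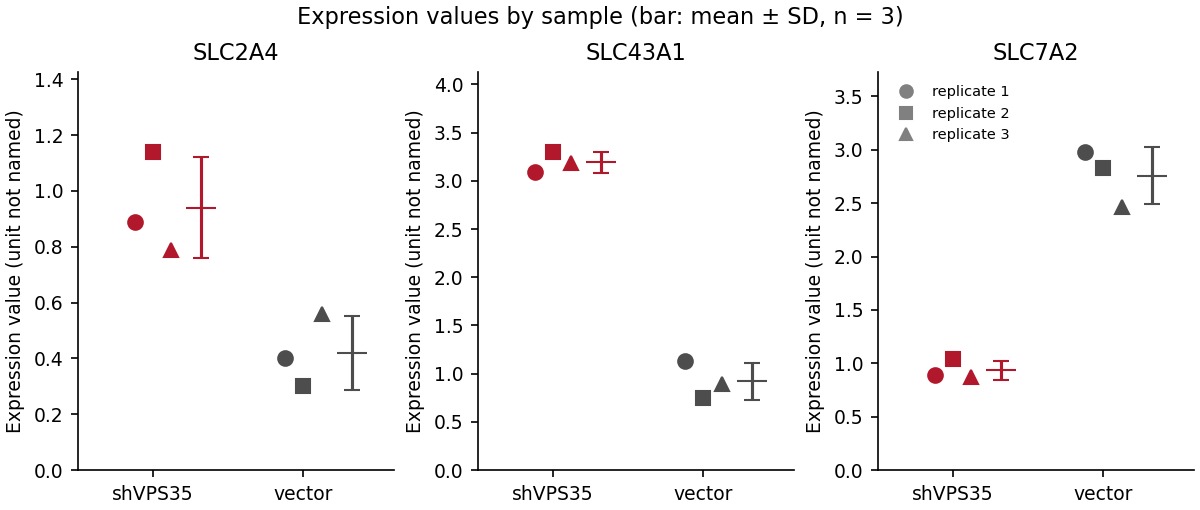
Expression value (linear axis, unit not named in the table) of SLC2A4, SLC43A1 and SLC7A2 in each shVPS35 and vector sample, with the mean ± SD (n = 3 per group) beside the points. SLC43A1 and SLC2A4 lie higher in all 3 shVPS35 samples and SLC7A2 lies lower, with the narrowest gap, 0.230, for SLC2A4.

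The groups of each member did not overlap, as was so for 93.4% of all 426 listed genes and for 97.6% of the 292 that passed the filter, so the separation adds nothing particular to the transporters. An exact 2-sided permutation test of 3 against 3 samples gave p = 0.1 for each of the 3 genes, the smallest p it can give. All 292 listed genes that passed the filter were called by limma, 100.0% of those tested, so a limma call within this table is no independent evidence and only sets the difference against the spread between samples. SLC43A1 and SLC7A2 passed the filter with 4 of 6 values at 1 or more, 3 of them from the group where each is high.

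In the authors' deposited table SLC7A2 had an adjusted p of 8.7e-22, SLC43A1 of 4.8e-11 and SLC2A4 of 0.0125. By p among the 16063 genes, SLC7A2 held rank 345, SLC43A1 rank 757 and SLC2A4 rank 3242. By the size of the authors' log2 fold change, SLC43A1 (2.31) was 39th of 190 genes listed as higher and SLC2A4 (1.15) 160th, while SLC7A2 (-1.51) was 124th of 236 listed as lower. The median of the table was 1.50 for genes listed as higher and -1.55 for genes listed as lower. SLC7A2 was thus near the middle of its direction, SLC43A1 above it and SLC2A4 close to the limit of 1.

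**Figure D2:**
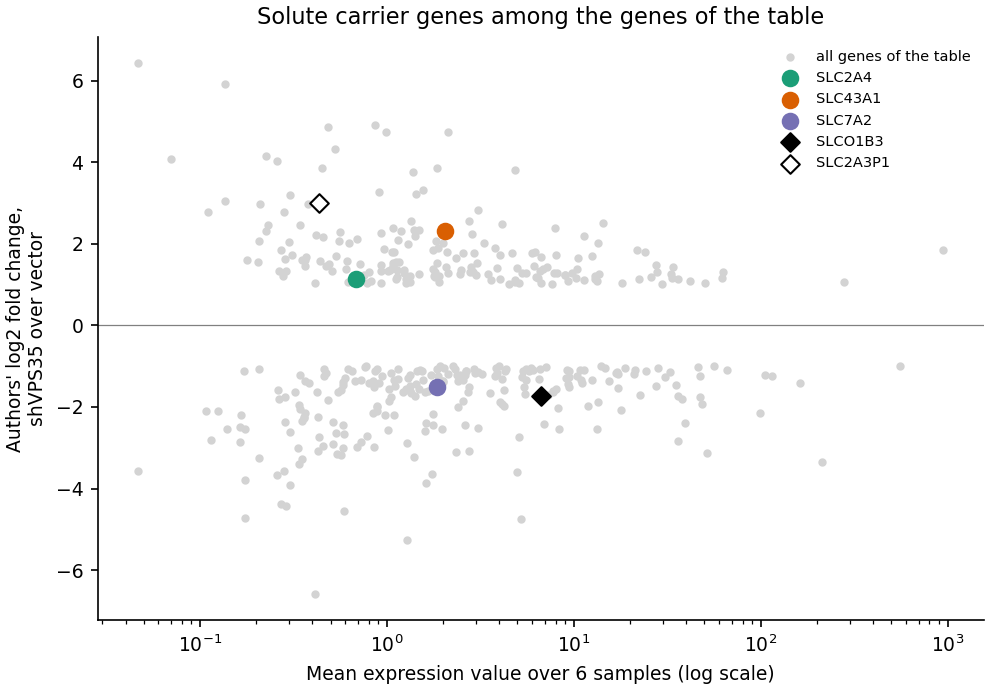
Mean expression value over the 6 samples (log axis) against log2 fold change, shVPS35 over vector, from the authors' deposited table, for all 426 genes (grey), the 3 transporters (coloured circles) and the other solute carrier entries (diamonds). SLC43A1 and SLC2A4 lie above 0, at 2.31 and 1.15, and SLC7A2 below it, at -1.51.

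The fold change of SLC43A1 depends on which deposited quantity is read. In the authors' deposited table its ratio was 4.96, while its sample values give 3.45, a gap of 0.52 on the log2 scale. For SLC2A4 the authors' deposited table had 2.21 and the sample values gave 2.24. For SLC7A2 the authors' deposited table had 0.351 and the sample values gave 0.339. Among the 381 listed genes whose higher group mean reached 0.5 and which had no group at 0, the median gap was 0.08, and 32 genes, or 8.40%, had a gap as large as that of SLC43A1. No source used here says how the authors' ratio was computed.

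**Figure D3:**
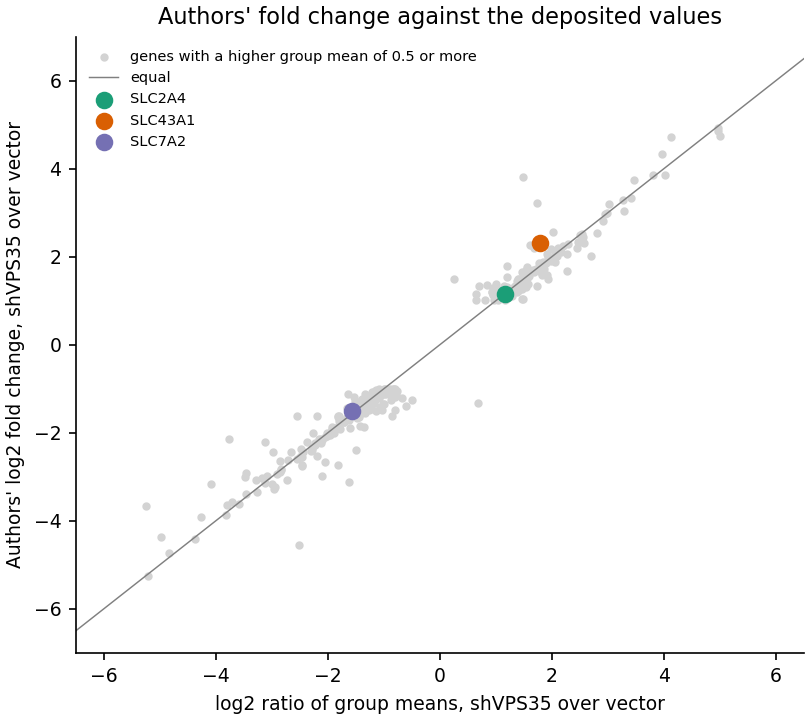
The log2 ratio of group means from the deposited sample values (horizontal) against that of the authors' deposited table (vertical), both shVPS35 over vector, with a line where they are equal. SLC2A4 and SLC7A2 lie on the line within 0.06, and SLC43A1 lies 0.52 above it.

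Ratios between the carriers also differed between the groups, but they are built from the same values and are no further evidence. The log2 ratio of SLC7A2 to SLC43A1 within a sample, taken on value + 1, was -1.11, -1.08 and -1.16 in the shVPS35 samples, against 0.90, 1.13 and 0.87 in the vector samples. Every shVPS35 sample lay below every vector sample. The difference was -2.08 ± 0.08 (SE). The log2 ratio of SLC7A2 to SLC2A4 averaged 0.00 ± 0.07 in shVPS35 and 1.41 ± 0.22 in vector samples (SD, n = 3 per group), a difference of -1.41 ± 0.13. The log2 ratio of SLC2A4 to SLC43A1 averaged -1.11 ± 0.11 in shVPS35 and -0.44 ± 0.16 in vector samples, a difference of -0.68 ± 0.11, so that SLC43A1 gained on SLC2A4 on this scale. In each of the 3 pairs the groups did not overlap, and the exact 2-sided permutation p was 0.1, the smallest possible, also after adjustment over the 3 pairs. The members were listed for their differences, so the ratios of SLC7A2 to the other two were bound to differ.

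**Figure D4:**
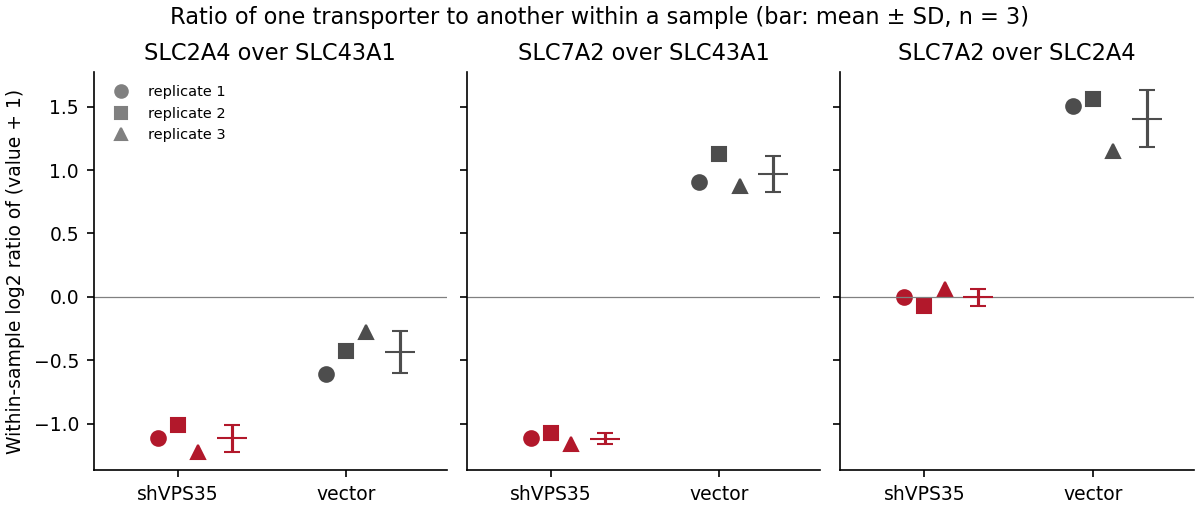
Log2 ratio of one transporter's value + 1 to another's within each shVPS35 and vector sample, with the mean ± SD (n = 3 per group). SLC7A2 over SLC43A1 shows the widest shift, -2.08, and SLC2A4 over SLC43A1 the narrowest, -0.68.

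Within the shVPS35 group the values of SLC2A4 and SLC7A2 were highest in sample 2 and lowest in sample 3, the order of the remaining VPS35 (11.8 in sample 3, 12.9 in sample 1 and 15.6 in sample 2). The sum over all listed genes had the same order. For SLC7A2 more VPS35 went with a higher value, as between the groups. For SLC2A4 the order ran against its group difference, with the highest value where most VPS35 remained. SLC43A1, also higher in shVPS35 cells, was likewise highest in sample 2, but lowest in sample 1. With 3 samples no such relation can be tested, and the part of the sample sum in it was not tested.

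Other solute carrier entries of the table were SLCO1B3 and SLC2A3P1. SLCO1B3 encodes OATP1B3, an organic anion carrier of hepatocytes that many tumours also express. Its value was 2.67, 2.84 and 3.43 in the shVPS35 samples and 9.99, 10.1 and 11.0 in the vector samples, so that 28.7% of the vector level remained (log2 difference -1.52 ± 0.11, SE, limma adjusted p = 3.5e-06). SLCO1B3 shared its direction with SLC7A2. SLC2A3P1, a processed pseudogene of the glucose carrier gene SLC2A3, had 1.31, 0.380 and 0.610 in shVPS35 samples against 0.290, 0 and 0 in vector samples. Reads can map to SLC2A3 as well, which makes the pseudogene's level uncertain. Of the 5 solute carrier entries, 3 passed the filter and all 3 were past the limma threshold, which 100.0% of tested genes were.

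Of 20 glucose and hexose transporter genes SLC2A4 was the only one listed, and of 51 amino acid transporter genes SLC43A1 and SLC7A2 were the only ones. None of 23 genes chosen for GLUT4 vesicle traffic, 30 for arginine, ornithine and polyamine metabolism or 31 for amino acid sensing by mTORC1 was listed. These lists are not complete. DEPTOR, the gene of an mTOR-binding protein, was left out of the mTORC1 list and was listed as higher. Its values were 3.11, 2.74 and 3.15 in the shVPS35 samples and 1.21, 1.19 and 0.990 in the vector samples. Over all genes tested by the authors 2.65% were listed, so counts this low in lists of this size are near the background and say nothing particular about these families. Genes outside the table were not analysed here, and their absence from it does not show that they kept their level.

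Among 14 genes of transcription factors linked to SLC2A4, PPARG was listed as lower and ESR1 as higher in shVPS35 cells. The share over all genes tested by the authors was 2.65%, and neither this list nor those below was tested as a set. PPARG, the nuclear receptor of fat cell differentiation, fell to 11.1 ± 1.50 in shVPS35 cells, against 22.9 ± 0.806 in vector cells (limma adjusted p = 1.7e-05). ESR1, the gene of oestrogen receptor alpha, had 1.87 ± 0.349 in shVPS35 cells, against 0.420 ± 0.181 in vector cells (SD, n = 3 per group), and it passed the filter only through its 3 shVPS35 values, so no test is given. Of 25 insulin signalling genes INPP5D, which encodes a lipid phosphatase of blood cells that acts on the product of PI3-kinase, was the only one listed, at 0.0300, 0.0200 and 0.0400 in shVPS35 samples and at 0.440, 0.560 and 0.720 in vector samples. Of 42 genes of glycolysis and glucose use AKR1B1, aldose reductase, was the only one listed and fell (limma adjusted p = 4.0e-07), with 53.8% of its vector level left.

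On the amino acid side, 1 of 22 enzymes of branched-chain and aromatic amino acid breakdown was listed, beside 2.65% of all genes tested by the authors. It was HPD, which acts in tyrosine breakdown and rose to 381 ± 1.01 in shVPS35 cells, against 179 ± 4.03 in vector cells (SD, n = 3 per group; limma adjusted p = 7.9e-08). Of 18 genes chosen for the ATF4 amino acid response, NUPR1, a stress-induced nuclear protein gene, was the only one listed. The chosen lists are not complete, and the rest of the table was not searched for genes of amino acid use. NUPR1 rose to 85.6 ± 1.23 in shVPS35 cells, against 38.3 ± 0.920 in vector cells (limma adjusted p = 9.3e-08). Single listed genes in lists of this size are near the background and say nothing particular about these pathways.

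Among the 292 listed genes that passed the filter on low values, those most like each member were found by the root mean square distance between log2(value + 1) profiles over the 6 samples, each profile set to its vector mean. For SLC43A1 they were RASSF2 (distance 0.06), HPD (0.07) and PRSS56 (0.08). For SLC7A2 they were NTN4, MUC13 and CDH2, at distances of 0.05, 0.06 and 0.08. For SLC2A4, which did not pass that filter itself, they were WFDC1 at 0.12, ETNK2 at 0.13 and CLMN at 0.14, and listed genes below the filter were not searched. Because all listed genes differ between the same groups, a small distance reflects mainly a like difference on this scale. HPD had a log2 difference of 1.09 at values of 381 ± 1.01 in shVPS35 and 179 ± 4.03 in vector cells, and SLC43A1 one of 1.13 at values below 4, where the added 1 shrinks the change.

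**Figure D5:**
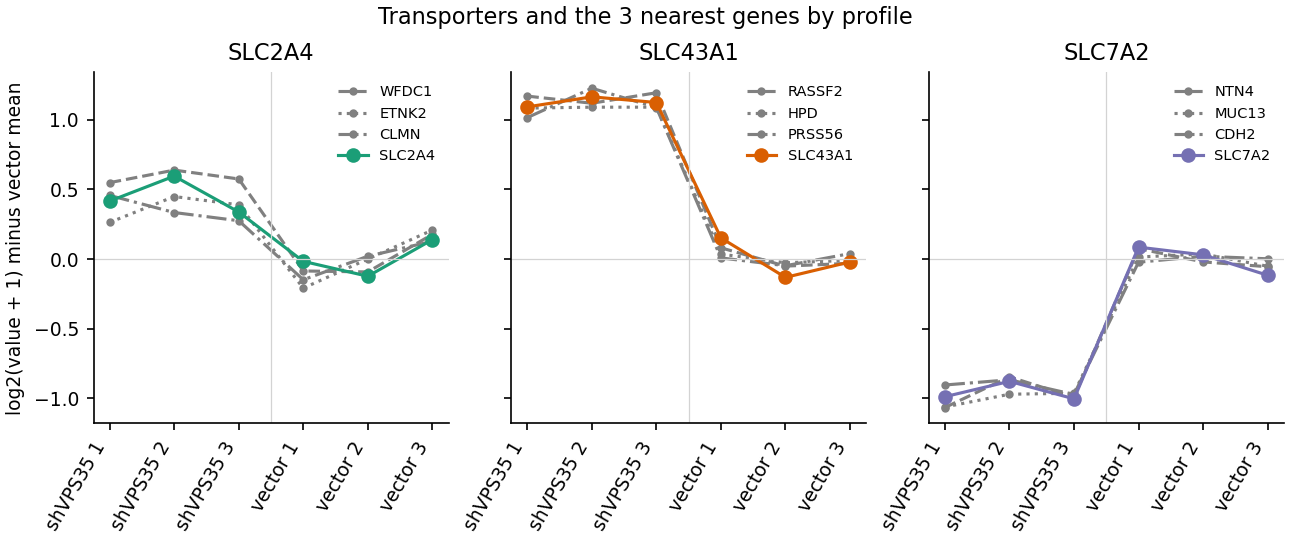
Profiles of log2(value + 1) over the 6 samples, each set to its own vector mean, for SLC2A4, SLC43A1 and SLC7A2 (coloured) and the 3 genes nearest to each among the 292 that passed the filter on low values (grey); lines only join the points of a gene. The profiles of the nearest genes lie within a root mean square distance of 0.08 of SLC43A1 and SLC7A2 and of 0.14 of SLC2A4.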

How the data were processed

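RNA was sequenced from 3 shVPS35 and 3 vector samples of MKN28 cells. The submitters' processing notes name fastp, HISAT, RSEM and GRCh38.p13, without versions or roles. The authors' deposited table gives an expression signal per gene and sample, with no unit named, as well as the authors' ratio of shVPS35 over vector, its log2, a p-value and an adjusted p-value, per the file headers. No source used here names the test behind these. Groups came from sample titles and columns were matched by name.

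Values were tested as log2(value + 1) with limma 3.58.1 (trend and robust variance, statmod 1.5.0, R 4.3.3), group as the only term, over the 292 of 426 genes that reached a value of 1 in 3 samples or more. P-values were adjusted by Benjamini-Hochberg over all 292, with a threshold of 0.05. The script was tested on simulated data. The number of genes tested by the authors was the one at which most adjusted p-values gave a whole rank (387 of 422 within 0.01). Within-sample ratios were compared by exact permutation (Python 3.11.15, numpy 2.4.6, pandas 2.3.3, scipy 1.17.1, figures with matplotlib 3.10.9). Positions came from GENCODE 29 on GRCh38 (421 of 426 identifiers matched) and promoter windows from RefSeq.

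The members and gene lists were chosen with earlier results of these data known. The genes named were the members, VPS35 and every other solute carrier in the table. Up to 4 listed genes per list, by size of difference, and the 3 genes nearest each member in profile were added. LPL, CD68 and the gastric markers come from the lists of cell type markers. DEPTOR and the listed neighbours PDGFRL and MYLK3 were named after the values were seen. Alternatives were other pseudocounts, filters, scalings and variance settings, a replicate block, and leaving out each sample.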

Additional observations from a re-analysis of the deposited data

How the results depend on the processing

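The directions of SLC2A4, SLC43A1, SLC7A2 and VPS35 were kept under every alternative that gave a value, including both scalings and each omitted sample. The groups of these genes did not overlap. Other pseudocounts, filters and variance settings, the block and omitted samples could therefore not reverse a direction. SLC43A1 and SLC7A2 stayed past the limma threshold in all 13. Both were listed for differing in these same samples and passed the filter through the 3 values of their higher group. Staying past the threshold therefore adds no evidence of a change. Log2 differences ran from 0.47 to 1.70 for SLC43A1 and from -1.47 to -0.39 for SLC7A2. The sizes depend on the pseudocount. With 0.1 and 5, the SLC2A4 log2 difference was 1.02 and 0.13, the shift of SLC7A2 over SLC43A1 was -3.17 and -0.85, and that of SLC7A2 over SLC2A4 was -2.48 and -0.52. The shift of SLC2A4 over SLC43A1 was -0.34 with 5. Without a filter SLC2A4 (0.45) became testable and passed, and 5 solute carrier entries, the pseudogene SLC2A3P1 among them, were past the threshold in place of 3. The share past it was 100.0% of the 292 listed genes tested with the filter and 95.8% of all 426 without. These calls therefore say nothing particular about the transporters. A filter of 5 left 1, SLCO1B3, and none of the members. Leaving out each sample in turn gave 0.38 to 0.52 for SLC2A4, 1.06 to 1.20 for SLC43A1 and -1.02 to -0.91 for SLC7A2, and 3 solute carriers past the threshold each time. No pairing by replicate number was seen, with correlations of same-numbered deviations of -0.06, -0.09 and 0.03 over 292 genes. Those of differently numbered samples ran from -0.04 to 0.11, and so few samples cannot show that pairing was absent. With the replicate block SLC43A1 had a difference of 1.13 and SLC7A2 of -0.96, the same as without it. With the depth unknown, counting error could not be set beside these low values.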

Other observations

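SLC7A2 has a listed neighbour. PDGFRL, which encodes a protein like the PDGF receptor and lies 5.9 kb downstream on the same strand of chromosome 8 (17576433 to 17644071), was also lower in shVPS35 cells. Its value was 0.970, 0.880 and 1.23 in the shVPS35 samples and 2.0, 3.64 and 2.12 in the vector samples. So 39.7% of the vector level remained, with a log2(value + 1) difference of -0.80. The vector values of PDGFRL alone carried it past the filter on low values, so no test is given. It was the only listed gene within 1 Mb of SLC7A2, and it was looked for after the values were seen. SLC2A4 had CD68 alone within 1 Mb, 291 kb away and lower in shVPS35 cells, and SLC43A1 had no listed neighbour in that window. VPS35 itself had MYLK3 13.9 kb away, which was higher in shVPS35 cells while VPS35 was lower. The share of all listed genes with a listed neighbour was not computed, so PDGFRL cannot be called unusual.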
